A study of Mus musculus with 12 samples.

Results

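To describe how the transcriptome of cochlear organoids changed with LIN28B, the 3 libraries of LIN28B organoids were compared with the 3 libraries of control organoids, which are 6 of the 12 libraries of the study. LIN28B organoids came from mice with a Col1a1-TRE-LIN28B transgene, which places human LIN28B under a doxycycline-responsive promoter, together with R26rtTA*M2/+, which drives the doxycycline-dependent activator from the broadly active Rosa26 locus. Control organoids came from R26rtTA*M2/+ littermates without the LIN28B transgene. In both groups, epithelial cells of the cochlea were taken from mice of either sex at 5 days of age, placed in Matrigel and expanded for 7 days with EGF, FGF2, CHIR99021, valproic acid and doxycycline at 0.5 μg/ml. Doxycycline, the activator allele and the growth factors were therefore shared, and the groups differed by the transgene. The other libraries were 3 of FST+LIN28B and 3 of FST organoids, which carry an inducible follistatin transgene with and without LIN28B. Each of the 3 samples of a condition came from a different animal, and the p-values measure the spread between these samples.

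LIN28B is an RNA-binding protein of embryonic and undifferentiated cells that blocks the maturation of let-7 microRNAs. Let-7 microRNAs accumulate as tissues mature and repress growth-promoting and embryonic messages through short seed matches in their 3′ UTRs. Supporting cells are the nonsensory cells of the cochlear epithelium. They surround the hair cells, secrete the tectorial membrane and lose the ability to divide and to form hair cells shortly after birth. Genes of a let-7 target list and of a TGF-β superfamily list were fitted with all others, and the account below is mainly about the genes outside those lists, with members of them marked where they are named.

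Levels are in CPM (counts scaled to a common, TMM-normalized library size) unless TPM is named, and 3 values are those of replicates 1, 2 and 3. Lin28b was at 480.1, 473 and 193 CPM in LIN28B organoids, against 22.01, 21.2 and 24.5 CPM in control organoids, and each LIN28B library was above each control library. The Lin28b count may hold reads of the human transgene, and replicate 3 had the least. The libraries held 50.5 to 64.4 M estimated counts in LIN28B and 54.4 to 59.4 M in control. In the whole series FST replicate 2 stood apart from the other 11 libraries along the first principal component. The Y-linked genes Ddx3y and Eif2s3y were at 0.282 CPM or less in 1 of 3 LIN28B and 1 of 3 control libraries. Of the epithelial markers, Epcam was at 651 to 754 CPM in LIN28B and 816 to 972 CPM in control, and Jag1 was also high, whereas Pax2 was at 0.216 CPM or less. Krt18 went the other way, at 167 to 188 CPM in LIN28B and 117 to 137 CPM in control. Cdh1 overlapped, at 271 to 459 CPM in LIN28B and 240 to 283 CPM in control. Of 15 epithelial markers tested, every LIN28B library was above control in 1 and below in 8 (60.0%, against 36.6% of all genes tested). Summed over 16 epithelial markers, the libraries were at 3606 to 4099 CPM in LIN28B and 5654 to 5839 CPM in control, a difference to which Tecta added most. The summed markers of neurons (158 to 187 CPM in LIN28B, 155 to 183 CPM in control), endothelium (37.2 to 59.0 CPM in LIN28B, 40.2 to 56.1 CPM in control), melanocytes (10.5 to 12.2 CPM in LIN28B, 10.7 to 11.8 CPM in control) and immune cells (3.87 to 5.30 CPM in LIN28B, 4.90 to 5.40 CPM in control) overlapped between the groups. The neuron sum was mostly Isl1 (115 to 151 CPM in LIN28B, 120 to 140 CPM in control), which the supporting cell list also holds. Of 13 neuron markers tested, 5 were above control in every LIN28B library, among them Nefl (1.88 to 2.82 CPM, against 0.315 to 0.671 CPM). In 1, Ntrk2, every LIN28B library was below (3.68 to 7.51 CPM, against 14.5 to 23.6 CPM). The groups thus did not overlap in 46.2% of the neuron markers tested, against 36.6% of all genes tested. The defining markers Foxd3 (Schwann cells) and Tyrp1 (melanocytes) were at 0 in all 6 libraries. The summed Schwann cell markers, mostly Sox10, Erbb3 and Mbp, were at 309 to 364 CPM in LIN28B and 387 to 428 CPM in control. Mesenchyme markers summed to 1582 to 2198 CPM in LIN28B and 1716 to 1833 CPM in control, nearly all of it Dcn and Lum, with Col1a1 at 5.45 CPM or less. Of 16 tested, 3 were above control in every LIN28B library and 2 below (31.2%, against 36.6% of all genes tested). Their median log2 fold change was 0.40, with 10 of 16 positive. Tbx15 was at 14.6 to 18.2 CPM in LIN28B and 2.58 to 5.33 CPM in control, and was called higher by the test given below.

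In organoids with LIN28B, 644 of 18780 genes tested changed (3.43%), of which 395 were higher (2.1% of the genes tested) and 249 were lower (1.33%). These are calls of edgeR's quasi-likelihood test at an adjusted p under 0.01. Of the 644 genes, 25 stood in the let-7 or TGF-β lists and 619 did not. By more than 1 on the log2 scale moved 235 of the higher and 127 of the lower genes, and by more than 2 moved 97 and 30. The largest changes were rises, since 38 higher genes but 1 lower gene, Otoa, moved by more than 3. Over all genes the median log2 fold change was -0.03, and 45.9% of genes were positive. The higher genes together held 14306 TPM in LIN28B and 7282 TPM in control (means of 3 libraries). The lower genes held 5062 TPM in LIN28B and 10783 TPM in control. In all 644 genes the 3 LIN28B libraries lay on one side of the 3 control libraries, as they did in 36.6% of all genes tested. An exact permutation test of 3 against 3 libraries cannot go below a p of 0.1.

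**Figure D1:**
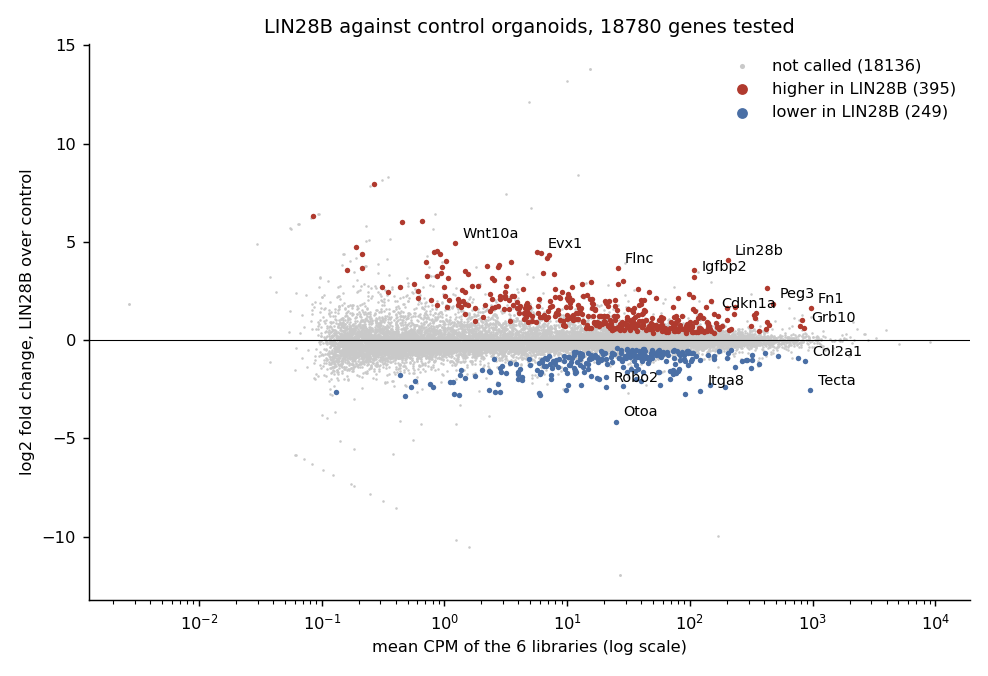
Log2 fold change of LIN28B over control (vertical axis) against the mean CPM of the 6 libraries (horizontal log axis) for the 18780 genes tested, one point per gene. The 395 higher genes (red) reach further from 0 than the 249 lower genes (blue), and points of extreme fold without a call (grey) did not pass the test.

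The LIN28B libraries did not respond equally. Replicate 3, with the lowest Lin28b, was the LIN28B library nearest to control in 292 of the 395 higher genes (73.9%) and in 185 of the 249 lower genes (74.3%), compared with 40.7% of all genes tested. The count of calls moved with single libraries. It was 217 without LIN28B replicate 1, 218 without LIN28B replicate 2, 315 without control replicate 1, 177 without control replicate 2, 169 without control replicate 3 and 416 without FST+LIN28B replicate 1. It was 1362 without FST replicate 2, whose spread enters the fit. Of the 644 genes, 139 (88 higher, 51 lower) were called in each of the 12 fits that left out 1 library. Of the genes named below, Trim29 lost its call in 13 of the 25 alternative analyses, Gm6087 and Pla2g5 in 12, Ddc in 11, and Hoxd8 and Trp53inp1 in 10. Mia, Neurog2, Rarg and Slc6a13 lost it in 9, Samd14, Stk32b, Tfap2c and Thbs2 in 8, and Cbln2, Cdh4, Grb10, Lrrc55 and Spock1 in 7. Losses in 9 or more are given beside the other genes, and the rest of those named that were followed under the alternatives lost it in 6 or fewer.

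The 20 genes that rose most included those of the transcription factors Evx1, Bcl11b, Neurog2, Tfap2c and Grhl3, which apart from Bcl11b were below 1 CPM in every control library. Evx1 (chr6:52313498-52318378 of GRCm38), a homeobox gene of posterior embryonic tissue, was at 12.8, 12.4 and 9.58 CPM in LIN28B organoids, against 0.755, 0.427 and 0.431 CPM in control organoids. Its log2 fold change was 4.42 (SE 0.51), with an edgeR adjusted p of 0.00046. Bcl11b, which encodes a zinc finger transcription factor of neurons and T cells, was at 46.7, 54.4 and 51.98 CPM in LIN28B organoids, against 7.81, 4.92 and 6.43 CPM in control organoids. Its LIN28B libraries were close to each other and far above the highest control library. Neurog2, a proneural factor, was at 3.07, 3.64 and 1.38 CPM in LIN28B, against 0.486, 0.0742 and 0.133 CPM in control, and Tfap2c, an AP-2 factor, was at 4.31, 6.16 and 2.03 CPM in LIN28B, against 0.369, 0.223 and 0.315 CPM in control. In both, replicate 3 was the lowest LIN28B library, yet above every control library. Grhl3, a grainyhead factor of surface epithelium, showed the same order at 4.83, 6.18 and 2.65 CPM in LIN28B, against 0.587, 0.408 and 0.646 CPM in control.

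Wnt10a, a secreted Wnt ligand, had the largest fold among the genes named by size, with a log2 fold change of 4.94 (SE 0.55), although its level stayed low at 1.56, 3.95 and 1.61 CPM in LIN28B organoids, against 0.0838, 0.0928 and 0.0497 CPM in control organoids. LIN28B replicate 2 was the highest of its libraries. Fgfr2, the receptor for several FGFs, was at 6.13, 4.47 and 2.65 CPM in LIN28B organoids, against 0.721, 0.483 and 0.282 CPM in control organoids. Htr4, a serotonin receptor, was at 5.39, 5.73 and 4.02 CPM in LIN28B, against 0.352, 0.427 and 0.364 CPM in control, a log2 fold change of 3.72 (SE 0.52). Pcdh8, a protocadherin, was at 46.6, 52.7 and 36.6 CPM in LIN28B organoids, against 7.44, 5.79 and 5.37 CPM in control organoids. This was the most precise of the 20 largest rises, 2.87 (SE 0.18) with an edgeR adjusted p of 1.2e-05. Cbln2, a secreted synaptic organizer, was at 18.2, 10.8 and 9.87 CPM in LIN28B, against 0.922, 0.705 and 0.53 CPM in control. Lrrc55, a potassium channel accessory subunit, was at 8.22, 5.76 and 1.66 CPM in LIN28B, against 0.436, 0.297 and 0.364 CPM in control.

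Igfbp2, a binding protein of insulin-like growth factors, was the most abundant of the 20 genes at 228, 249.5 and 109 CPM in LIN28B organoids, against 26.5, 18.2 and 17.9 CPM in control organoids. Flnc, which encodes the actin crosslinker filamin C, was at 39.5, 77.6 and 26.6 CPM in LIN28B, against 4.36, 4.01 and 2.87 CPM in control. Both had LIN28B replicate 3 lowest and nonetheless several times above control. The small GTPase Diras2 was at 16.8, 16.5 and 9.02 CPM in LIN28B, against 1.29, 1.32 and 1.49 CPM in control, and Rsad2, an interferon-stimulated gene, was at 6.75, 5.299 and 5.72 CPM in LIN28B, against 0.604, 0.798 and 0.547 CPM in control. Of 40 interferon-stimulated and antigen presentation genes tested, edgeR called Rsad2 higher and Tapbp lower, and DESeq2 called 3 higher and 1 lower. Over all 18780 genes edgeR called 644 (3.43%) and DESeq2 called 1585. Ptgs2, the inducible prostaglandin synthase, was at 8.34, 19.1 and 4.95 CPM in LIN28B, against 0.486, 0.315 and 0.629 CPM in control and lost its call in 13 of the 25 alternatives. The rest of the 20 were Ankrd1, Zim1, Trim29 and Klhdc8a, with log2 fold changes of 4.0, 3.43, 3.37 and 2.85.

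Some called genes were not detected in control. Slc6a13, a GABA transporter gene, had 10, 9 and 10 counts in LIN28B and 0 counts in each control library, which is at least 9.57-fold higher against a limit of 3 counts over the control group. The predicted gene Gm6087 had 22, 32 and 39 counts in LIN28B and 0 in each control library, at least 30.6-fold higher by the same limit. Both limits cover counting error alone. In all, 23 called genes (13 higher, 10 lower) had predicted or pseudogene symbols. The strongest was Gm5182, at 15.05, 16.6 and 9.21 CPM in LIN28B, against 0.788, 0.538 and 0.679 CPM in control.

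**Figure D2:**
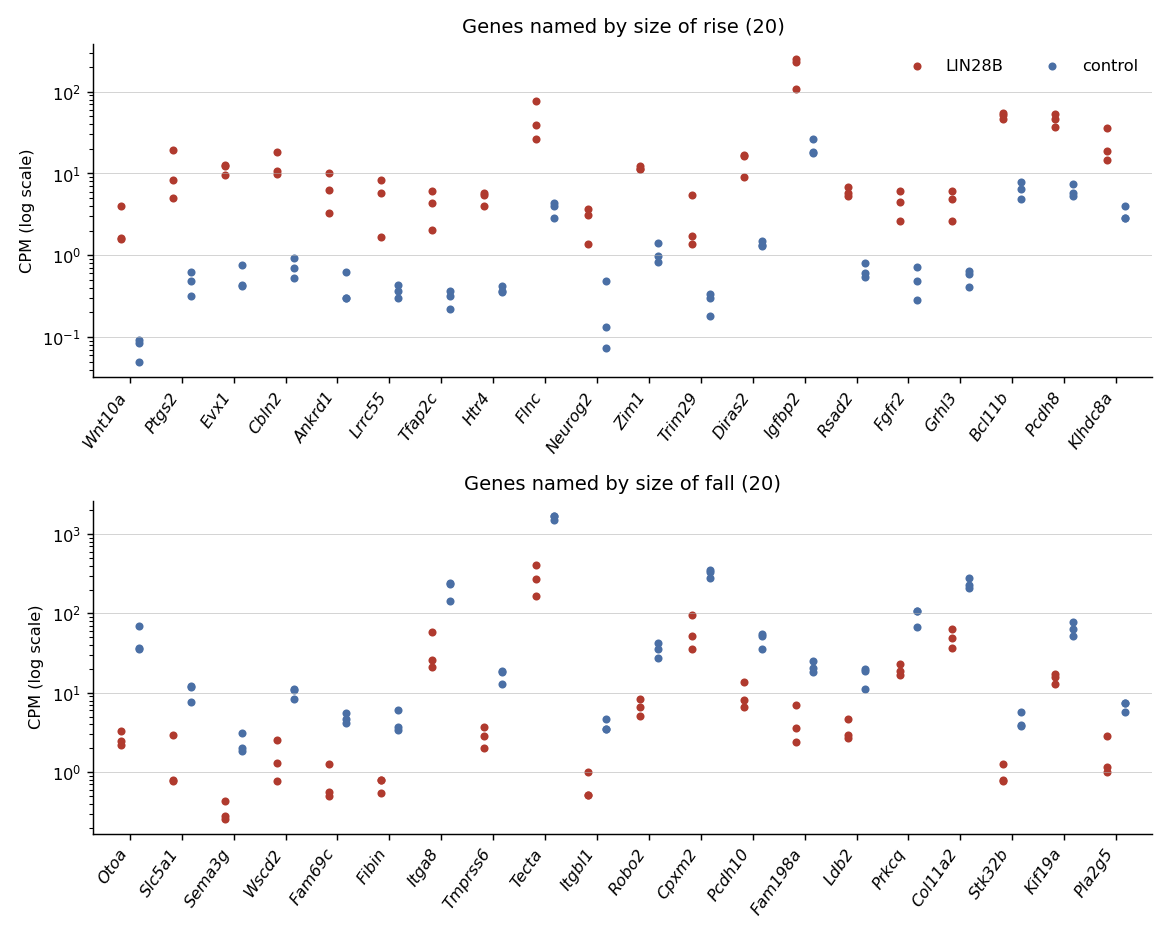
CPM on a log axis in each LIN28B library (red, left of each pair) and each control library (blue, right) for the 20 genes of highest (top) and the 20 of lowest (bottom) log2 fold change among named called genes. Genes were taken only where the groups did not overlap. The falls include genes that were abundant in control, such as Tecta at 1500 to 1700 CPM.

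The 20 genes that fell most included Otoa and Tecta, which encode proteins of the cochlear gels. Tecta (chr9:42329619-42399929 of GRCm38), which encodes α-tectorin, the main noncollagen protein of the tectorial membrane, was at 166, 274 and 402 CPM in LIN28B organoids, against 1705, 1497 and 1692 CPM in control organoids. This was the second largest loss of message in TPM among the genes named by amount, at 35.9, 62.6 and 84.4 TPM in LIN28B, against 378, 318 and 373 TPM in control. Otoa, which encodes otoancorin, an attachment protein between such gels and the nonsensory epithelium, was at 2.46, 2.23 and 3.28 CPM in LIN28B organoids, against 35.9, 37.2 and 68.7 CPM in control organoids, the largest fall by fold at -4.15 (SE 0.41). The groups did not overlap in these genes, and for Tecta the LIN28B libraries themselves spread more than the control libraries.

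Other genes among these 20 had varied roles. Itga8, an integrin subunit, was at 25.8, 20.9 and 58.3 CPM in LIN28B organoids, against 145, 240.1 and 235 CPM in control organoids. Robo2, a receptor for the guidance cue Slit, was at 5.11, 6.54 and 8.36 CPM in LIN28B organoids, against 27.2, 35.8 and 42.1 CPM in control organoids, a log2 fold change of -2.39 (SE 0.19) with an edgeR adjusted p of 8e-05. LIN28B replicate 3 was the highest LIN28B library in both. Prkcq, a protein kinase C isoform, was at 18.6, 16.7 and 22.7 CPM in LIN28B, against 67.5, 108 and 107 CPM in control, and Kif19a, a kinesin of motile cilia, was at 17.2, 12.9 and 15.8 CPM in LIN28B, against 51.5, 64.3 and 77.7 CPM in control. The glucose cotransporter gene Slc5a1 was at 0.802, 0.764 and 2.91 CPM in LIN28B, against 7.66, 12.2 and 11.7 CPM in control. The protease gene Tmprss6 was at 2.85, 1.99 and 3.698 CPM in LIN28B, against 12.99, 18.2 and 18.9 CPM in control, and Cpxm2, a carboxypeptidase-like gene, was at 51.5, 35.7 and 96.6 CPM in LIN28B, against 279, 357 and 328 CPM in control. These changes lay between -2.08 and -2.81 on the log2 scale. Fam198a, Fam69c, Fibin, Itgbl1, Ldb2, Pcdh10, Pla2g5, Sema3g, Stk32b, Wscd2 and Col11a2 made up the rest of the 20, from -2.81 (Sema3g) to -2.04 (Pla2g5).

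By amount of message, Igfbp2 and Fn1 had the largest rises among the called genes named by amount. Igfbp2 was at 306, 353 and 142 TPM in LIN28B, against 37.5, 24.7 and 25.1 TPM in control. Fn1, which encodes the matrix protein fibronectin, was at 286, 525 and 251 TPM in LIN28B, against 166, 89.7 and 98.4 TPM in control, although its call was lost in 15 of the 25 alternatives. For Fn1, LIN28B replicate 2 and control replicate 1 were the high libraries of their groups. Cdc34, a ubiquitin-conjugating enzyme gene and a known let-7 target, was at 307, 267 and 261 TPM in LIN28B, against 128, 128 and 136 TPM in control. Mcam, a cell adhesion gene, was at 261, 335 and 231 TPM in LIN28B, against 128, 135 and 114 TPM in control. The cadherin gene Cdh11 was at 173, 165 and 126 TPM in LIN28B, against 75.7, 53.8 and 61.6 TPM in control. In Cdc34, Mcam and Cdh11 the lowest LIN28B library was above the highest control library. The largest loss among them was that of Crym, which encodes a thyroid hormone binding protein, at 178, 179 and 279.9 TPM in LIN28B, against 417, 654 and 628 TPM in control, and Tecta was followed by Mia, a secreted protein gene of cartilage and melanoma, at 126, 94.3 and 184 TPM in LIN28B, against 374, 451 and 463 TPM in control. For Crym and Mia, replicate 3 was the LIN28B library nearest to control.

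The response was then read by gene groups. These were written with earlier results of these data known, so their counts are a description and carry no test. For each group the median log2 fold change is set against that of all genes, -0.03, and the share of called genes against 3.43%. The looser counts have a larger base. Of the 18780 genes tested, 3973 had an unadjusted p under 0.05. DESeq2 called 1585 (980 higher, 605 lower), and edgeR called 1579 at an adjusted p under 0.05 (941 higher, 638 lower).

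Wnt signalling genes were often called: 12 of 57 tested were higher and 1 was lower, with a median log2 fold change of 0.21. The ligands Wnt6, Wnt9a, Wnt10a and Wnt16 rose. Wnt6 was the most abundant of them at 70.8, 67.5 and 55.3 CPM in LIN28B organoids, against 18.2, 15.1 and 13.7 CPM in control organoids, a log2 fold change of 2.04 (SE 0.19) with an edgeR adjusted p of 0.00012. The receptor genes Fzd9 and Fzd10 also rose, by 0.76 and 1.13 on the log2 scale. Many of the called genes restrain the pathway. Notum, an enzyme that inactivates Wnt ligands, was at 40.9, 28.9 and 35.7 CPM in LIN28B, against 9.47, 8.81 and 7.82 CPM in control. Dkk2 and Dkk4, secreted ligands of the LRP coreceptors, were at 367, 396 and 307 CPM and 1.76, 1.38 and 0.756 CPM in LIN28B, against 147, 85.6 and 97.2 CPM and 0.151, 0.13 and 0.116 CPM in control. Kremen2, a receptor for Dkk proteins, Apcdd1, a membrane inhibitor, and Sp5, a direct Wnt target gene, rose by 1.74, 1.53 and 0.75. Sfrp1, which encodes a soluble Wnt-binding protein, was the member that fell, at 384, 307 and 442 CPM in LIN28B, against 609, 696 and 689.8 CPM in control. Wnt16 lost its call in 13 of the 25 alternatives. All organoids were grown with CHIR99021, which activates this pathway downstream of the receptors.

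Of 45 FGF pathway genes edgeR called 6 higher and none lower, with a median of 0.13. DESeq2 called 10 higher and 2 lower, and 16 were higher and 8 lower at an unadjusted p under 0.05. Fgf15, Fgf16 and Fgf20 are ligands. Fgf15 was at 21.2, 22.3 and 13.9 CPM in LIN28B organoids, against 4.12, 2.49 and 2.14 CPM in control organoids, and Fgf16 was at 6.03, 6.53 and 6.05 CPM in LIN28B organoids, against 1.84, 1.54 and 1.36 CPM in control organoids. Fgf20, needed for lateral supporting and hair cells in the embryo, was at 4.51, 3.64 and 2.96 CPM in LIN28B, against 1.56, 0.928 and 1.13 CPM in control and lost its call in 12 of the 25 alternatives. Fgfbp1, which releases FGFs from the matrix, was at 11.2, 18.1 and 13.4 CPM in LIN28B, against 3.35, 3.56 and 2.799 CPM in control, and Flrt3, a membrane protein that binds FGF receptors, was at 61.6, 47.5 and 49.99 CPM in LIN28B, against 22.7, 21.9 and 21.6 CPM in control. The FGF receptor Fgfr2 is given above. No member of the Notch pathway list (29 tested, median -0.11) was called by edgeR in either direction. In that list 18 of 29 genes were negative, 5 were higher and 7 lower at an unadjusted p under 0.05, and DESeq2 called 1.

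Hox and ParaHox genes and their cofactors had one of the largest group medians, 1.30, with 20 of 24 tested genes positive. The list held 54 genes, and only these 24 passed the filter on low counts. A gene near 0 in control could pass only through the groups where it was higher. The median and the counts by direction in this group therefore lean upward by selection. Under the alternatives the median lay between 0.33 and 1.65. By edgeR 6 of these genes rose and none fell (DESeq2 10 higher and 0 lower, and 15 and 1 at an unadjusted p under 0.05): Evx1, Hoxb4, Hoxd8, Meis2, Meis3 and Pbx2. Meis2, a cofactor of Hox proteins, was the abundant one at 99.3, 94.3 and 64.1 CPM in LIN28B organoids, against 27.5, 17.1 and 12.7 CPM in control organoids. Meis3 was at 16.6, 15.7 and 15.4 CPM in LIN28B, against 7.39, 7.41 and 8.0 CPM in control, and Pbx2 was at 97.5, 85.4 and 88.5 CPM in LIN28B, against 50.95, 56.99 and 53.6 CPM in control. The Hox genes themselves were rare messages. Hoxb4 was at 1.36, 1.91 and 0.724 CPM in LIN28B, against 0.0838, 0.111 and 0.0497 CPM in control, and Hoxd8 was at 2.22, 1.88 and 1.17 CPM in LIN28B, against 0.537, 0.464 and 0.265 CPM in control, in both cases with no overlap. Several others had no call but separate groups, among them Hoxb13 at 1.62, 3.31 and 0.418 CPM in LIN28B, against 0.168, 0.111 and 0.0497 CPM in control (edgeR adjusted p 0.018) and Hoxc13 at 0.481, 1.03 and 0.402 CPM in LIN28B, against 0.0838, 0.0742 and 0.149 CPM in control (adjusted p 0.023). In 15 of the 24 genes every LIN28B library was above every control library, and in 1 below (66.7%, against 36.6% of all genes tested). The filter on low counts favours such upward separation here as well.

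Imprinted genes, which are expressed from the allele of 1 parent and often control fetal growth, were called higher by edgeR in 7 of 38 (none lower, median 0.25). DESeq2 called 8 higher and 0 lower, and 16 were higher and 4 lower at an unadjusted p under 0.05. Zim1, Peg3 and Usp29, neighbours in 1 imprinted cluster, all rose. Peg3, a zinc finger gene, was at 799, 803 and 615 CPM in LIN28B organoids, against 215, 197 and 196 CPM in control organoids, with a log2 fold change of 1.87 (SE 0.16) and an edgeR adjusted p of 9.6e-05. Zim1 was at 12.4, 11.3 and 11.2 CPM in LIN28B, against 1.41, 0.835 and 0.994 CPM in control, and Usp29 was at 32.4, 30.9 and 25.4 CPM in LIN28B, against 13.2, 13.2 and 11.6 CPM in control. Igf2r, the receptor that clears IGF2, was at 1037, 1216 and 1039 CPM in LIN28B, against 518, 587 and 512 CPM in control. Grb10, an adaptor that dampens insulin signalling, was at 1066, 1040.2 and 979 CPM in LIN28B, against 645, 678 and 648 CPM in control. The spread of these genes within LIN28B was small compared with the difference. Cdkn1c, which encodes the CDK inhibitor p57, was at 74.7, 61.05 and 55.4 CPM in LIN28B, against 23.5, 25.5 and 20.1 CPM in control, and Ddc was at 7.27, 7.14 and 4.04 CPM in LIN28B, against 1.84, 2.097 and 1.89 CPM in control.

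Several inhibitors of the cell cycle rose, while the genes of a cell cycle and mitosis list had no edgeR call. Outside that list the D cyclin gene Ccnd2, of the let-7 list, was called higher by edgeR. Ccnd2 was at 681, 921 and 592 CPM in LIN28B organoids, against 151.5, 91.6 and 105 CPM in control organoids. Of 7 CDK inhibitor genes, edgeR called 4 higher and none lower (median 1.34), DESeq2 called 4 higher and 1 lower, and 4 were higher and 2 lower at an unadjusted p under 0.05. Cdkn1a, which encodes p21, was at 212, 270.0 and 194 CPM in LIN28B organoids, against 98.7, 91.3 and 76.7 CPM in control organoids, and Cdkn2b, which encodes p15, was at 19.4, 23.7 and 13.7 CPM in LIN28B organoids, against 6.59, 5.73 and 5.896 CPM in control organoids. Cdkn2a was at 17.6, 19.8 and 15.5 CPM in LIN28B, against 7.83, 7.03 and 5.27 CPM in control and lost its call in 9 of the 25 alternatives. Cdkn1b, the p27 gene of supporting cells, was at 86.7, 73.1 and 89.2 CPM in LIN28B, against 99.6, 108 and 115 CPM in control, and Cdkn2c, the p18 gene, was at 33.8, 22.9 and 38.6 CPM in LIN28B, against 63.3, 67.1 and 59.5 CPM in control, neither of them called (edgeR adjusted p 0.13 and 0.012). Of 61 genes of the cell cycle and mitosis none was called by edgeR in either direction, and 46 were negative (median -0.14). DESeq2 called 1 higher and 3 lower, and at an edgeR adjusted p under 0.05 the counts were 1 and 4. At an unadjusted p under 0.05 they were 3 and 13.

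Genes known as targets of p53 had 11 of 29 members called higher by edgeR and none lower, with a median of 0.59 and 26 of 29 positive. DESeq2 called 17 higher and 1 lower, and 22 were higher and 1 lower at an unadjusted p under 0.05. Pmaip1, which encodes the proapoptotic protein NOXA, was at 86.6, 75.7 and 42.3 CPM in LIN28B organoids, against 18.2, 16.9 and 14.01 CPM in control organoids. Trp53inp1 was at 224, 269.9 and 124 CPM in LIN28B, against 60.7, 59.2 and 69.4 CPM in control, and Ccng1 was at 589.8, 579.6 and 480.1 CPM in LIN28B, against 293, 298 and 284 CPM in control. Gadd45g, a growth arrest gene, was at 6.83, 7.06 and 4.29 CPM in LIN28B, against 1.11, 1.32 and 1.36 CPM in control. Mdm2, the p53 ubiquitin ligase gene, had a smaller change, 0.59 (SE 0.08). Btg2, Plk2, Eda2r, Ei24, Fas and Cdkn1a were the other called members, and Fas lost its call in 15 of the 25 alternatives. Trp53 itself was at 45.2, 59.3 and 66.1 CPM in LIN28B, against 47.6, 60.8 and 54.97 CPM in control and its groups overlapped. Without 1 library the number of called members was between 3 and 14.

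Glycolysis genes had a high median with no gene past the threshold. Of 24 glycolysis genes 21 were positive, with a median of 1.00 that stayed between 0.90 and 1.12 under the alternatives, yet none was called by edgeR in either direction at the threshold. At an adjusted p under 0.05, edgeR called 4 higher, and DESeq2 called 7 higher at 0.01. At an unadjusted p under 0.05 the count was 16 higher and 0 lower. Slc2a1, the glucose transporter GLUT1, was at 242, 317 and 152 CPM in LIN28B organoids, against 67.8, 66.2 and 56.8 CPM in control organoids (edgeR adjusted p 0.022). Ldha, which encodes lactate dehydrogenase A, was at 1263, 1315 and 939 CPM in LIN28B organoids, against 506, 486 and 438 CPM in control organoids (adjusted p 0.067), and Gapdh was at 1573, 1628 and 1485 CPM in LIN28B, against 731, 817 and 681 CPM in control (adjusted p 0.011). In 17 of the 24 genes all LIN28B libraries were above all control libraries, and in 1 below (75.0%, against 36.6% of all genes tested). Summed over the group, the level was 10781 to 14818 CPM in LIN28B and 6729 to 7030.3 CPM in control. Of 43 ribosome biogenesis genes 2 were called, a share near that of all genes, and 42 had positive values with a median of 0.24. These were Utp4 at 76.9, 74.6 and 73.5 CPM in LIN28B, against 51.4, 57.2 and 53.8 CPM in control and Wdr12 at 59.4, 55.9 and 53.3 CPM in LIN28B, against 42.03, 43.3 and 43.4 CPM in control, whose calls were lost in 15 and 16 of the 25 alternatives. Of 74 oxidative phosphorylation genes none was called by edgeR or DESeq2, and 1 had an unadjusted p under 0.05 (median -0.01).

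**Figure D3:**
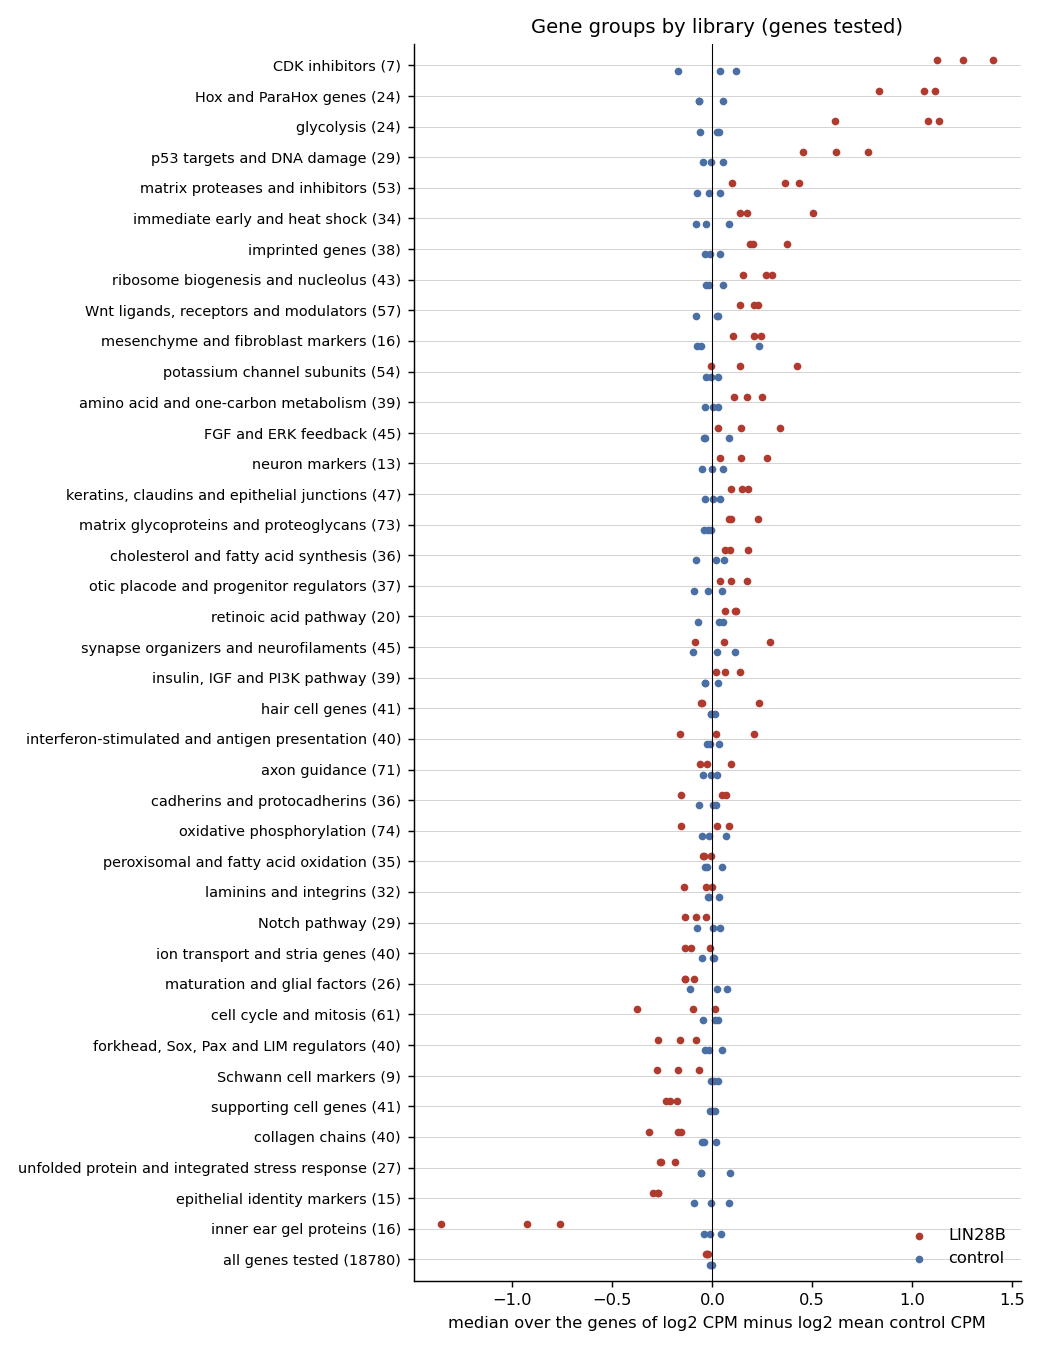
Median over the genes of each group of log2 CPM minus the log2 of the mean control CPM (horizontal axis), one point per library, with LIN28B (red) above control (blue) in each row and the number of genes tested in parentheses. CDK inhibitors, Hox genes, glycolysis and p53 targets lie furthest right in LIN28B, and inner ear gel proteins lie furthest left, at -0.76 to -1.36.

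Genes of the inner ear gels, the tectorial membrane and otoconial matrix, were the group with the lowest median, -0.86. Of 16 tested, edgeR called 5 lower and none higher, and 13 were negative. DESeq2 called 7 lower and 1 higher, and 11 were lower and 2 higher at an unadjusted p under 0.05. Besides Tecta and Otoa the 5 called were Otogl, Col11a2 and Col2a1. Otogl, which encodes otogelin-like, was at 44.7, 29.4 and 46.9 CPM in LIN28B organoids, against 123, 162 and 180.4 CPM in control organoids. The collagens Col11a2 and Col2a1 were at 48.5, 37.1 and 64.6 CPM and 587, 435 and 642 CPM in LIN28B, against 210.2, 278 and 231 CPM and 1023, 1404 and 1058 CPM in control. Otog and Col9a1, not called, were at 145, 201 and 149.6 and 293, 212 and 403 CPM in LIN28B, against 319, 271 and 287 and 472, 596 and 517 CPM in control (edgeR adjusted p 0.019 and 0.065). The gene Zpld1, of a zona pellucida domain protein of the vestibular gels, stood out on the other side at 12.2, 7.08 and 6.496 CPM in LIN28B, against 1.53, 0.557 and 0.364 CPM in control (adjusted p 0.037). In these bulk libraries fewer cells of a type and less RNA per cell cannot be told apart.

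Of 41 supporting cell genes tested, edgeR called 2 higher (Prox1 and, of the TGF-β list, Bmp2) and 2 lower (Gjb6 and Slc1a3), with a median of -0.26. This list also holds Otog, given above with the gel genes, so the groups are not separate. More members were lower than higher by looser calls: DESeq2 called 2 higher and 7 lower, as did edgeR at an adjusted p under 0.05, and 4 were higher and 15 lower at an unadjusted p under 0.05. Slc1a3, a glutamate transporter of supporting cells, was at 21.5, 19.1 and 20.3 CPM in LIN28B organoids, against 35.9, 39.4 and 38.05 CPM in control organoids. Its log2 fold change was -0.89 (SE 0.09) with an edgeR adjusted p of 0.00017. Gjb6, which encodes connexin 30, was at 4.35, 3.32 and 4.65 CPM in LIN28B, against 9.22, 10.02 and 13.5 CPM in control. Prox1, a homeobox gene of pillar and Deiters' cells, was at 14.9, 19.6 and 10.2 CPM in LIN28B, against 6.24, 3.21 and 4.36 CPM in control and lost its call in 14 of the 25 alternatives. Thrb, a thyroid hormone receptor gene of cochlear maturation, was at 15.2, 14.4 and 25.1 CPM in LIN28B, against 46.01, 51.1 and 62.9 CPM in control and was the one called member of 26 maturation and glial factors. The share called in that group was near that of all genes. Hair cell genes (41 tested) held 4 higher and 1 lower call, with a median of -0.01 whose sign changed between scalings of the libraries (-0.04 to 0.09). The 37 otic placode and progenitor regulators had 3 higher and 1 lower call. Outside the lists these included Sox3, an early otic and neural factor, at 5.77, 4.49 and 3.57 CPM in LIN28B, against 1.46, 0.835 and 0.977 CPM in control, and Nr2f1, an orphan nuclear receptor gene, at 129, 136 and 154 CPM in LIN28B, against 247, 273 and 259 CPM in control. Sox21 and Sox8 fell, at 19.8, 15.02 and 25.5 and 1.04, 1.15 and 1.27 CPM in LIN28B, against 54.1, 73.01 and 60.1 and 2.75, 3.67 and 4.19 CPM in control.

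Guidance and adhesion genes changed in both directions. Of 36 cadherins and protocadherins 2 rose (Pcdh8 and Cdh11) and 2 fell (Pcdh10 and Cdh4). Of 71 axon guidance genes 6 rose and 8 fell. The risers were Nrp1, Ntn1, Slit1, Epha2, Unc5b and Sema3c. Nrp1, which encodes neuropilin 1, was at 62.6, 111 and 59.5 CPM in LIN28B organoids, against 16.9, 12.3 and 13.2 CPM in control organoids. The netrin gene Ntn1 was at 9.14, 25.6 and 7.36 CPM in LIN28B, against 3.605, 2.82 and 2.67 CPM in control and lost its call in 15 of the 25 alternatives. Slit1 was at 4.61, 6.94 and 3.78 CPM in LIN28B, against 1.46, 1.002 and 0.994 CPM in control, while its receptor gene Robo2 fell, as given above. Among the genes that fell, Sema3d was at 30.96, 33.4 and 49.01 CPM in LIN28B, against 94.3, 112 and 118 CPM in control, and the netrin receptor gene Unc5c was at 75.1, 64.2 and 70.2 CPM in LIN28B, against 133, 134 and 144 CPM in control, whereas its relative Unc5b was at 69.5, 61.2 and 44.6 CPM in LIN28B, against 24.4, 22.4 and 22.7 CPM in control.

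Matrix genes also changed in both directions. Of 73 matrix glycoproteins and proteoglycans 7 rose and 6 fell, and the rises included Thbs1 of the let-7 list and Ccn2 of the TGF-β list. Thrombospondin 1, encoded by Thbs1, was at 486, 552 and 447 CPM in LIN28B organoids, against 180.3, 210.1 and 183 CPM in control organoids, and Ccn2, which encodes connective tissue growth factor, was at 194, 182 and 172 CPM in LIN28B, against 93.9, 102 and 88.8 CPM in control. Thbs2 and Mfap4, at lower levels, also rose, at 9.04, 15.9 and 9.42 and 1.16, 2.31 and 1.69 CPM in LIN28B, against 2.88, 2.04 and 3.83 and 0.218, 0.315 and 0.265 CPM in control. The cartilage-associated genes Chadl, Prelp, Smoc1 and Spock1 fell, by -1.20, -1.81, -0.89 and -0.99 on the log2 scale. Of 40 collagen chains, a list without Col2a1, 1 rose and 3 fell, with Col16a1 at 6.59, 7.56 and 7.94 CPM in LIN28B, against 23.4, 32.2 and 30.97 CPM in control and Col27a1 at 41.9, 41.2 and 48.3 CPM in LIN28B, against 98.7, 138 and 123 CPM in control. Proteases and inhibitors (53 tested) had 6 higher and 3 lower calls, with Timp1, a metalloprotease inhibitor, at 7.37, 23.5 and 9.66 CPM in LIN28B, against 2.53, 2.12 and 2.04 CPM in control. LIN28B replicate 2 was the high library for Timp1, Thbs2 and Ntn1. Of 47 keratin, claudin and junction genes edgeR called 6 higher and none lower, DESeq2 called 9 higher and 3 lower, and 17 were higher and 6 lower at an unadjusted p under 0.05. Krt7, a keratin of simple epithelium, was at 28.96, 27.5 and 20.7 CPM in LIN28B, against 7.55, 6.403 and 4.31 CPM in control, and Cldn4, a claudin, was at 112, 155 and 97.5 CPM in LIN28B, against 53.1, 51.6 and 51.3 CPM in control.

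Retinoic acid genes had 3 calls among 20. Aldh1a2, which encodes an enzyme that makes retinoic acid, was at 21.5, 15.2 and 14.00 CPM in LIN28B organoids, against 4.64, 2.52 and 2.73 CPM in control organoids. Stra6, a retinol transporter gene, was at 39.9, 51.1 and 35.5 CPM in LIN28B, against 19.7, 18.4 and 17.97 CPM in control, and the receptor gene Rarg fell, at 12.6, 13.01 and 11.9 CPM in LIN28B, against 19.9, 22.98 and 19.7 CPM in control. Among 54 potassium channel genes edgeR called 1 higher and 1 lower, a share near that of all genes, and DESeq2 called 9 and 3. By edgeR, Kcna5 rose and Kcnn4 fell, at 6.01, 5.399 and 6.37 and 5.41, 6.84 and 8.17 CPM in LIN28B, against 1.71, 2.23 and 1.82 and 18.2, 26.1 and 28.5 CPM in control. Of 40 ion transport and stria vascularis genes 2 rose (Car12 and Scnn1g) and 4 fell (Atp6v1b1, Kcnj16, Lrp2 and Gjb6). Car12, a carbonic anhydrase gene, was at 21.4, 23.8 and 13.9 CPM in LIN28B, against 5.72, 6.51 and 6.86 CPM in control. Lrp2, which encodes the endocytic receptor megalin, was at 44.5, 49.05 and 35.9 CPM in LIN28B, against 71.02, 73.3 and 74.6 CPM in control. The proton pump subunit gene Atp6v1b1 was at 2.02, 2.87 and 4.28 CPM in LIN28B, against 9.57, 8.87 and 9.37 CPM in control and lost its call in 12 of the 25 alternatives. Of the 305 Slc transporter genes tested, 14 rose and 11 fell (8.20%). Neither the 466 Olfr olfactory receptor genes nor the 181 Vmn vomeronasal receptor genes tested had an edgeR call. At an unadjusted p under 0.05, 2 Olfr genes were higher and 12 lower, and 1 Vmn gene was higher and 1 lower, and DESeq2 called 1 Olfr and 0 Vmn genes. These are smaller shares than over all genes. The 2199 pseudogenes had 7 (0.318%).

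The same transgene was also compared in a second pair of conditions, FST+LIN28B against FST organoids, which shares no library with LIN28B against control. Both pairs came from 1 fit of all 12 libraries. The spread of the second pair therefore entered the choice of the 644 genes, and the counts below are not independent of that choice. Fitted on its own libraries alone, the second pair had 20 calls. In that pair 179 of 18780 genes were called (0.953%), 107 higher and 72 lower. Of the 395 higher genes, 387 had the same sign there and 91 were called in the same direction, with a median log2 fold change of 0.75, compared with 1.22 in LIN28B over control. Of the 249 lower genes, 248 had the same sign and 58 were called, with a median of -0.63, compared with -1.01. None was called in the opposite direction. Over all genes 76.5% had the same sign. In 320 of the 395 higher genes all 3 FST+LIN28B libraries were above all 3 FST libraries (8.78% of all genes), and in 211 of the 249 lower genes they were below (7.85% of all genes). The genes called in both pairs were 149, which is 23.1% of the 644 and 83.2% of the 179. Without FST replicate 2, 386 of the higher and 247 of the lower genes kept the sign, and 65 and 55 were called.

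**Figure D4:**
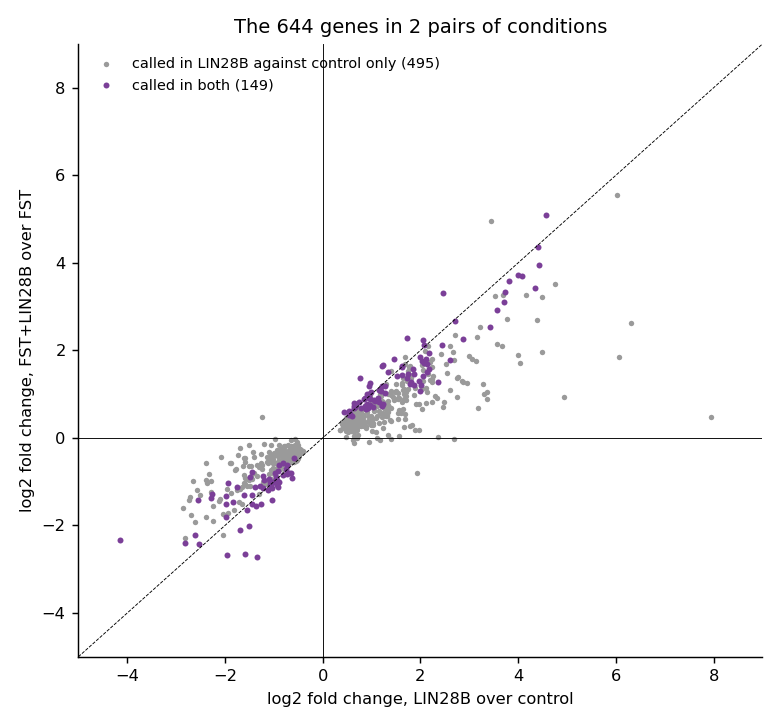
Log2 fold change of FST+LIN28B over FST (vertical axis) against that of LIN28B over control (horizontal axis) for the 644 genes called in LIN28B against control, with genes called in both pairs in purple and a dashed line of equal change. Most points lie in the quadrants of equal sign and nearer to 0 than the dashed line, where the medians are 0.75 and -0.63. The genes were chosen by their values on the horizontal axis, which pushes them away from 0 on that axis.

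Genes with large values in both pairs included Evx1 (1.57, 0.529 and 2.02 CPM in FST+LIN28B, 0.0798, 0.0216 and 0.151 CPM in FST), Pcdh8 (20.5, 19.8 and 26.6 CPM in FST+LIN28B, 4.69, 4.94 and 4.27 CPM in FST) and Tecta (308, 392 and 243 CPM in FST+LIN28B, 1316, 2405 and 1336 CPM in FST). Fgf15 was at 10.01, 5.198 and 6.46 CPM in FST+LIN28B and 0.958, 1.08 and 1.36 CPM in FST. Others had values near each other in the second pair. Aldh1a2 was at 2.397, 3.67 and 2.701 CPM in FST+LIN28B and 2.39, 2.79 and 3.399 CPM in FST, a log2 fold change of 0.03. Stra6 was at 21.9, 15.7 and 20.4 CPM in FST+LIN28B and 22.9, 19.3 and 18.1 CPM in FST, a log2 fold change of -0.06. Mfap4 likewise had -0.02. Wnt10a was not near 0 in that pair, at 0.93, and was not called there (edgeR adjusted p 0.41). The difference between the pairs was tested as an interaction and was not called for these genes, with edgeR adjusted p of 0.21 for Aldh1a2, 0.23 for Stra6, 0.35 for Mfap4 and 0.23 for Wnt10a. Of the p53 targets, 0 of 29 were called by edgeR in the second pair, while their median there was also 0.59. At an unadjusted p under 0.05, 18 of them were higher, and DESeq2 called 14.

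Whether let-7 matches occur among called genes that the let-7 list does not hold was examined in their 3′ UTRs. That list does not hold every known let-7 target, and Cdc34 is counted here as outside it. This search was chosen after the values were seen. The let-7 microRNAs are shown because 11 mouse microRNAs, the let-7 family and others, share one seed, bases 2 to 8, in capitals (RefSeq, GRCm38.p6).
mmu-let-7a-5p: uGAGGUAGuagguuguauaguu
mmu-let-7g-5p: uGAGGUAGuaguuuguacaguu
mmu-miR-98-5p: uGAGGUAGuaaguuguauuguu

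The match searched was CTACCTCA, the complement of that seed followed by an A, on the transcript strand of the 3′ UTR of each gene's most abundant coding transcript (GENCODE M21, GRCm38). Outside the let-7 and TGF-β lists, 31 of 366 higher genes with a 3′ UTR (8.47%) had at least 1 match, compared with 6 of 245 lower genes (2.45%) and 526 of 16270 genes tested (3.23%). The same letters in reverse order, ACTCCATC, were found in 2.19% of the higher genes, 2.86% of the lower genes and 2.63% of the genes tested. The higher genes had longer 3′ UTRs, with a median of 1490 bases, compared with 1366 bases in lower genes and 1041 bases in the genes tested. Within classes of UTR length the share of genes called higher was 7.23% with a match and 1.56% without in UTRs under 1000 bases, 6.15% and 2.32% from 1000 to 2000 bases, 5.88% and 3.04% from 2000 to 4000 bases, and 4.90% and 3.08% beyond. Over the alternatives the share of higher genes with a match was 6.25% to 9.32%. A match is a run of letters and not a measured binding site.

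**Figure D5:**
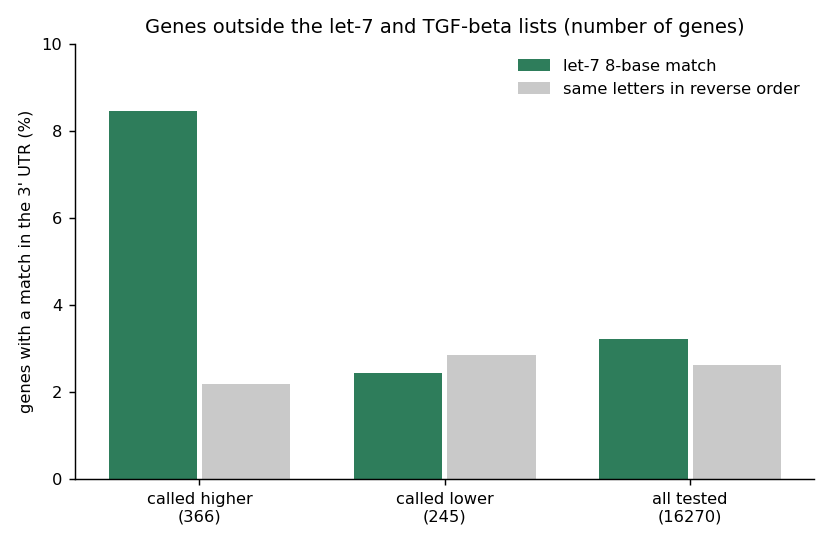
Percent of genes with at least 1 let-7 8-base match (green) or its letters in reverse order (grey) in the 3′ UTR, among genes outside the let-7 and TGF-β lists that were called higher, called lower or tested, with the number of genes under each pair of bars. The green bar of the higher genes, 8.47%, stands above the other bars, which lie between 2.19% and 3.23%.

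A set of 5 named genes is shown to give the bases around the match, which is in capitals.
Cdc34: caggcgacagaCTACCTCAccgaggttcca
Igf2r: tgctccgtgccCTACCTCAtctctgtagtt
Ntn1: acaagacatagCTACCTCAcggcgctcctt
Fas: aaaCTACCTCAgttccagccat
Fam198a: gctggaggatcCTACCTCAccgtgggacag

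The match begins at base 68 of the 3′ UTR of Cdc34 (chromosome 10), base 667 of Igf2r (chromosome 17), base 242 of Ntn1 (chromosome 11) and base 4 of Fas (chromosome 19), counted from 1 after the stop codon. The first 4 of these genes rose, by 1.15, 1.03, 2.21 and 1.86 on the log2 scale. Fam198a, with its match at base 150 (chromosome 9), fell, at 3.61, 2.43 and 7.06 CPM in LIN28B, against 18.5, 24.9 and 20.8 CPM in control. Other named genes that rose and hold a match included Htr4, Wnt9a, Cldn12 and Marveld2. Over the 526 genes with a match outside the lists, the median log2 fold change was 0.06 and 58.2% were positive. Over the 13720 genes with no match of the 7 seed bases, or of a shorter run of them followed by an A, these were -0.02 and 46.5%. In FST+LIN28B over FST the 2 medians were 0.05 and -0.03. These 2 sets differed in UTR length, with medians of 2482 and 871 bases. Genes with the reversed letters (median 2646 bases) had 0.003 and 50.2% in LIN28B over control. In UTRs under 1000 bases genes with a match had 0.13 and 66.3%, and those without had -0.02 and 45.9%. In UTRs of 4000 bases or more these were 0.005 and 51.1%, and -0.04 and 44.5%. Most genes with a match had no call, since 31 of the 526 were called higher and 6 lower in LIN28B.

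The calls were spread over the chromosomes, with 2.53% to 4.27% of the genes tested called on each of the autosomes and X. The LIN28B transgene sits at Col1a1 on chromosome 11. Within 1 Mb of that gene 5 of 42 genes tested were called (1 higher, 4 lower, 11.9%), within 5 Mb 10 of 144 (6.94%) and within 10 Mb 14 of 318 (4.40%). Igf2bp1, a let-7 target, and Hoxb4 lie within 5 Mb. The 4 genes called lower within 1 Mb fell by 1.10 or less on the log2 scale, with Samd14 at 17.7, 15.3 and 21.6 CPM in LIN28B, against 35.5, 37.4 and 30.6 CPM in control and Rsad1, whose call was lost in 20 of the 25 alternatives, at 2.77, 2.81 and 4.29 CPM in LIN28B, against 6.52, 6.24 and 6.39 CPM in control. Within 10 Mb of the Rosa26 locus, where both groups carry the activator, 5 of 140 genes were called, all higher (3.57%). The part of the transgene's position in these calls was not tested.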

How the data were processed

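RNA of 12 organoid samples (control, FST, LIN28B and FST+LIN28B, 3 each) was sequenced with a stranded total RNA kit, 50 bases from each end. The authors pseudo-aligned the reads with kallisto 0.46.1 to Ensembl 96 mouse transcripts (GRCm38) and deposited estimated counts per transcript with transcript lengths. Samples were grouped by their titles. No library was left out.

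Of 118489 transcripts, 116816 were matched to genes of GENCODE M21, and the other 1673 held 0.543% to 0.598% of the counts. Estimated counts were summed per gene over 36047 genes, which may split reads between close paralogs, and rounded. TPM were computed from the estimated counts and effective lengths. Totals were 42.7 to 65.3 M counts per library, so sampling noise is small except for rare messages, and the animals set the error.

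One fit of all 12 libraries in edgeR 4.0.16 (quasi-likelihood, robust, TMM, filterByExpr with min.count 10, min.total.count 15, large.n 10 and min.prop 0.7) gave 18780 genes, with a common biological coefficient of variation of 0.266. Contrasts were LIN28B over control, FST+LIN28B over FST, and their difference. Genes with a Benjamini-Hochberg adjusted p under 0.01 are called. The standard error is the log2 fold change over the square root of F. Single values over samples were compared with a two-sided exact permutation test.

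The members, the 46 gene lists and the rules were chosen with earlier results of these data known. Named genes were the 20 of highest and lowest log2 fold change and the 12 of largest change in TPM in each direction (called, averaging 2 CPM or more where higher, no overlap, approved symbol, outside the let-7 and TGF-β lists), up to 4 called members per list, and called genes within 10 Mb of the transgene sites. Uncalled members and further called members of a list, and the genes of the let-7 search, were picked with their values in view. Some genes are not reported here.

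The 25 alternatives changed 1 choice each. The tool was DESeq2 1.42.0, or limma 3.58.1 on log2(TPM + 1) or log2(TPM + 0.1). The scaling used RLE size factors, plain library size, counts corrected for transcript length, or counts that left out the 10 most abundant genes. Low counts were not filtered, or 1 CPM in 3 libraries was required. The design took the replicate number as a block, the Y-linked gene level as a covariate, or the libraries of the compared pair alone. The threshold was raised to 0.05, and each of the 12 libraries was left out in turn. The fit was tested on simulated counts. Versions were R 4.3.3 and Python 3.11.15.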

Additional observations from a re-analysis of the deposited data

Results flagged for a closer look

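AC117239.2, a gene known only by a clone symbol, was the 1 gene whose LIN28B effect differed between the pairs of conditions by edgeR's interaction test, with a log2 difference of 8.21 (FST+LIN28B over FST minus LIN28B over control, adjusted p = 0.00083). It was at 28.3, 24.3 and 28.1 CPM in LIN28B and 40.2, 24.4 and 23.9 CPM in control. It was at 22.3, 25.4 and 22.7 CPM in FST+LIN28B and 0, 0.216 and 0.0673 CPM in FST, so the difference lay in the FST libraries. Its LIN28B and control libraries overlapped, and it is no part of the response to LIN28B described above.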

How the results depend on the processing

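The count of 644 genes called in LIN28B against control stayed within 1.5 times under RLE size factors, library size alone, both other filters, rescaling for length, removal of the 10 most abundant genes, limma and the Y-linked covariate (455 to 758). It was 1585 with DESeq2, 1210 with only the 2 conditions, 1579 at an adjusted p under 0.05, and 169 to 1362 with 1 library left out. For FST+LIN28B against FST (179) the count was 789 with DESeq2, 20 with only the 2 conditions, 617 at an adjusted p under 0.05, 93 and 102 with limma at a pseudocount of 1 and 0.1, 75 with the Y-linked covariate, and 37 to 171 with 1 library left out. The lowest was 37, with FST+LIN28B replicate 1 left out, and leaving out FST replicate 1 or FST+LIN28B replicate 3 gave 52. The interaction (1 gene) had 33 calls with DESeq2, 0 with limma at a pseudocount of 0.1, and 0 to 1 with 1 library left out, where leaving out FST replicate 3 gave 0. The cause was not tested.

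With replicate number as a block the counts were 408, 85 and 0. The numbers share no known origin, and same-numbered LIN28B and control samples did not deviate together (r of 0.04, -0.14 and -0.05 across genes, which are not independent replicates), so the numbers were not taken to pair the samples.

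Higher genes were 61.3% of the calls in LIN28B against control, 53.2% of 699 with library size alone, and 52.6% and 53.3% with limma at a pseudocount of 1 and 0.1. For FST+LIN28B against FST they were 59.8%, 49.5% of 93 and 51 of 102 with limma, and 50.9% and 78.9% without FST and FST+LIN28B replicate 2. No scaling moved the median of all genes by more than 0.1 on the log2 scale. No value of a named called gene changed sign under any of the 25 alternatives. Of 154 named called genes 43 were called under every one, among all 112 such genes (74 higher, 38 lower), for example Wnt10a, Evx1, Peg3, Wnt6, Nrp1, Robo2, Otogl, Tecta and Otoa. The calls of Bcas3, Rsad1 and Mat2a were lost most often, in 21, 20 and 19 alternatives. With 3 animals a group, rare messages such as the Hox genes rest on few counts, batch was not given in the sources used here, and the Y-linked genes divide each group unequally.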
